A study of Mus musculus with 10 samples.

Results

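The genes described are those for the subunits and assembly factors of the mitochondrial respiratory chain and the ATP synthase in mouse sperm and testes. They were taken by symbol among the RefSeq mRNAs of the tables: every symbol beginning with Nduf, Sdha to Sdhd, Uqcr, Cox and a digit, Cycs, Cyct, Cyc1 or Atp5. This gave 99 genes with 107 transcripts, of 16082 known mRNA genes listed in at least 1 of 10 libraries. Of 111 genes on a list of the chain drawn up by symbol, 12 were listed in none of the libraries: Ndufb5, Ndufaf6, Ndufaf8, Sdhaf3, Cox6b1, Cox7b, Ndufa4, Cox7a1, Cox17, Cox19, Atp5md and Atp5mpl. The subunits encoded by mitochondrial DNA were not analysed here.

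RNA depleted of ribosomal RNA was sequenced from mature sperm and whole testes of mice labelled C57BL/6 and 3 to 5 months old, while the study's methods name C57BL/6J mice of a younger range. The control mice received saline and the others 1 intraperitoneal injection of CdCl2 at 3 mg per kg body weight, and all were killed at day 35. The saline mice gave 4 sperm pools and 2 testes libraries, and the cadmium mice 2 libraries of either kind. Sperm swam out of the vas deferens and cauda epididymis of several mice per pool and were treated with a lysis buffer for somatic cells. The study left control sperm pool 1 out, so its values are given here but it entered none of the main tests.

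The respiratory chain sits in the inner mitochondrial membrane. Complex I takes electrons from NADH and complex II from succinate, complex III passes them to cytochrome c, and complex IV hands them to oxygen. Complexes I, III and IV pump protons, and the ATP synthase, complex V, lets them flow back to make ATP. In the mammalian sperm the mitochondria are wound around the midpiece, and the male germ line replaces some somatic subunits by testis forms, such as Cyct for Cycs, Cox6b2 for Cox6b1 and Cox8c for Cox8a. Mature sperm hold little cytoplasm and are regarded as largely silent in transcription.

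The expected counts, which are the authors' estimates of fragments per transcript, summed to between 366455 and 1254477 in a sperm library and to between 2606086 and 2866856 in a testes library. Known mRNAs held 9.14 to 13.6% of the counts of a library, and known lncRNAs 73.4 to 78.6%. Germ cell markers were uneven in both tissues, with Akap4, a sperm tail protein, at 2.84 to 5.11 FPKM in testes. FPKM, which scales fragments to transcript length and library size, summed over 8 spermatid and sperm markers to 250.7 to 505.5 in sperm and 475.9 to 582.7 in testes. Prm2, a protamine of the sperm nucleus, stood at 183.7 to 438.2 FPKM in sperm, whereas Odf1, a protein of the outer dense fibres, was at 0 in all 6 sperm libraries and reached at most 2.38 FPKM in testes. The 6 spermatocyte markers summed to 0 FPKM in 5 of 6 sperm libraries and 3.18 in cadmium sperm 1, and to 2.48 to 7.04 in testes. Kit, a spermatogonial receptor, was at 0 in every sperm library and at most at 0.07 FPKM in testes. Cdh1 of epithelium was at 0 in testes and at most at 0.54 FPKM in sperm, and Cd4 of leukocytes reached 0.48 and 1.69. Summed over its markers, the epididymal epithelium gave 0 to 13.0 FPKM in sperm and 5.70 to 12.5 in testes, the Leydig cell 0 to 27.5 in sperm and 15.6 to 22.2 in testes, and the leukocyte 0 to 4.85 and 2.54 to 3.84. The same sums were 0.43 to 3.75 in sperm and 20.1 to 28.0 in testes for spermatogonia, and 0 to 14.8 and 2.18 to 5.35 for Sertoli cells. They were 0 to 2.22 and 0.20 to 0.92 for red blood cells, and 0.65 to 33.6 and 11.5 to 15.9 for muscle. Some sums rest on 1 gene: Gfra1 alone gave 19.18 to 26.95 FPKM of the spermatogonial sum in testes. The highest sperm sums for Sertoli cells, Leydig cells and muscle each came from 1 listed gene in 1 control pool. In bulk samples such as these, fewer cells of a type and less RNA per cell cannot be told apart.

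Few genes of the chain were listed in a sperm library. A library of control sperm listed 6, 29, 4 and 10 of the 99 members in pools 1 to 4, and the cadmium sperm samples listed 34 and 31. The control testes samples listed 79 and 65, and the cadmium testes samples 64 and 71. Every testes library thus listed more members than any sperm library, at more than 2 times the depth of the deepest of them. Pool 3, with the lowest total of 366455 counts, listed the fewest. Over control sperm pools 2 to 4 together, 33 members were listed at least once, which is 33.3% of the members, against 45.8% of all known mRNA genes. In control testes 89 members were listed at least once, or 89.9%, against 86.5% of all known mRNA genes. In cadmium sperm the shares were 43.4% and 60.0%, and in cadmium testes 87.9% and 85.9%. By amount, the members held 3.42 to 5.91% of the known mRNA FPKM of a sperm library and 2.06 to 2.77% of a testes library. The complex I gene Ndufa13 held at least 89.8% of the members' FPKM in sperm and at least 77.2% in testes. Without it, the members summed to 77.1 to 186.3 FPKM in a sperm library and 195.7 to 276.7 in a testes library. This sum was lower in each sperm library than in any testes library.

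**Figure D1:**
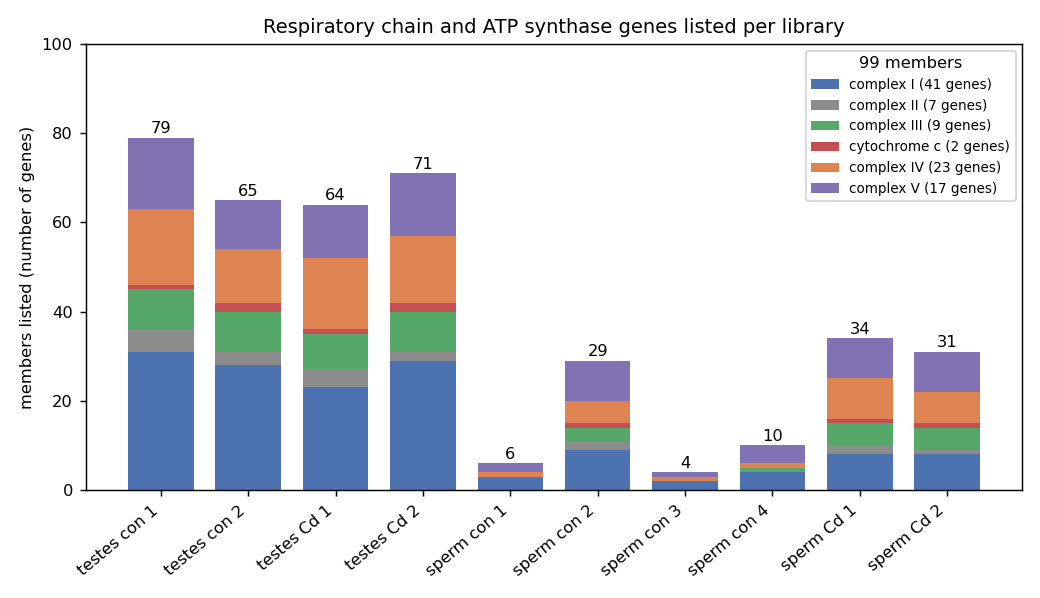
The bars give the number of members listed above 0 in each library (con, saline control; Cd, cadmium), stacked by complex with assembly factors included. The 4 testes libraries list 64 to 79 members and the 6 sperm libraries 4 to 34, with fewer members of complexes I, III, IV and V in each sperm library than in any testes library.

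The counts behind a member were few. The median member had 8 expected counts summed over the 10 libraries, against 14 for a known mRNA gene, and 18 members had fewer than 3. There were 55 members under 10 counts and 37 between 10 and 100. Only 7 members exceeded 100 counts: Ndufa13, Uqcrc2, Atp5f1, Cox15, Uqcrq, Atp5b and Cox11. Of all 24663 counts on the members, 21235 lay on Ndufa13. Uqcr10 rested on 41 counts and Atp5g2 on 54. Just 3 members, Ndufa13, Atp5f1 and Cox15, were listed in all 10 libraries. Of the others, Atp5b had up to 28 counts in a sperm library, Uqcrq up to 14 and Cox11 up to 11.

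**Figure D2:**
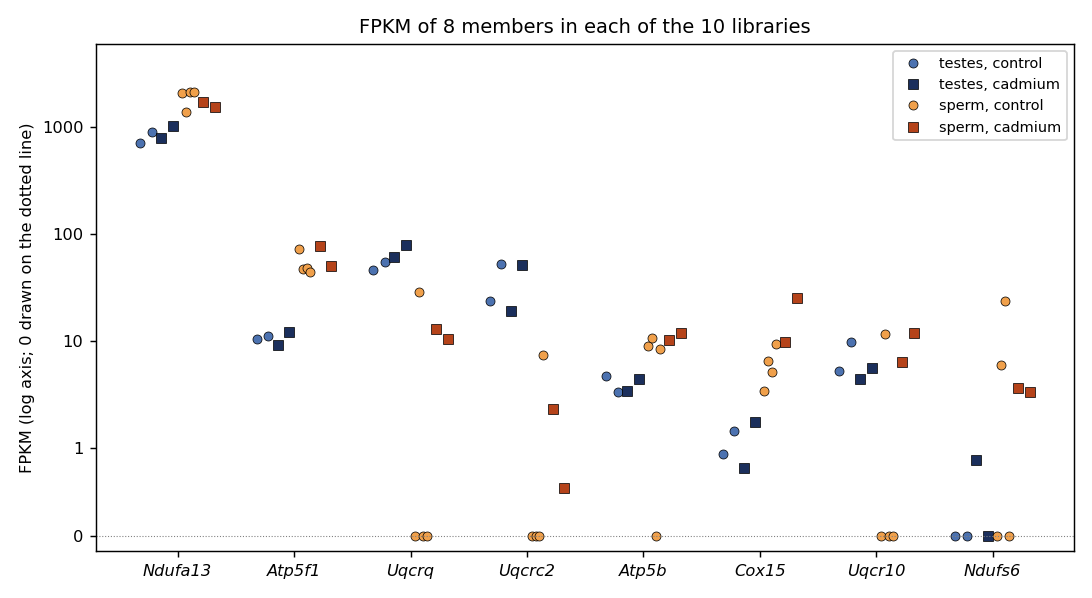
Each point is the FPKM of 1 member in 1 library on a log axis, with values of 0 on the dotted line, for testes (blue) and sperm (orange) of control mice (circles) and cadmium mice (squares). Ndufa13 sits far above the rest, Atp5f1 and Cox15 are higher in each sperm library than in any testes library, and Uqcrc2 and Uqcrq are lower in each sperm library than in any testes library.

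Complex I, the NADH dehydrogenase, had 35 subunit genes and 6 assembly factor genes among the members. All 35 subunits were listed in at least 1 testes library, 11 of them in all 4, while 12 were listed in at least 1 sperm library and Ndufa13 alone in all 6. Ndufa13, also known as GRIM-19, is an accessory subunit of the membrane arm. It stood at 2071.8, 1395.1, 2127.2 and 2130.6 FPKM in control sperm pools 1 to 4 and at 1732.9 and 1546.1 in cadmium sperm. The testes values were 707.9 and 899.8 FPKM in controls and 794.9 and 1031.6 after cadmium. Each sperm library was above every testes library. It ranked 3 or 4 among all known mRNA genes of each library, and held 81.3 to 95.8% of the counts on the members.

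No other complex I gene came near it. Without Ndufa13, the FPKM of the other 34 subunits summed to 8.03 to 24.0 in a sperm library and 20.0 to 43.2 in a testes library. The next highest by the mean over the 10 libraries were Ndufs6, an accessory subunit of the matrix arm, and Ndufv3, an accessory subunit of the NADH-binding module. Ndufs6 stood at 0, 6.07, 24.0 and 0 FPKM in control sperm pools 1 to 4, at 3.70 and 3.34 in cadmium sperm, at 0 in both control testes samples and at 0.77 and 0 in cadmium testes. These are 11 counts in sperm and 1 in testes. Ndufv3 lay between 0 and 8.82 FPKM in sperm and between 1.81 and 2.42 in testes, so that its ranges overlapped. Core subunits of the NADH-binding module were low as well. Ndufv1 and Ndufs1 stood at 0 in all sperm libraries and reached 0.71 and 1.17 FPKM in testes.

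The genome around Ndufa13 was examined because this gene carries most of the counts. In RefSeq's GRCm38.p6 the gene spans chr8:69894163-69902558 on the minus strand, and the kinase gene Tssk6, which sperm need to condense their chromatin, spans chr8:69902184-69903518 on the plus strand, so that they overlap by 375 bases. The window from 250 bases before to 50 bases after the Ndufa13 start site, chr8:69901971-69902270, is set on a start at 69902020, inside the span of the gene. The Tssk6 start lies 164 bases upstream of that start on the other strand, and within the gene when its span is counted from its outer end. In the other members that were listed in all 10 libraries, the start used is the outer end of the gene. Atp5f1, which RefSeq calls Atp5pb, has the start of Wdr77, a methylosome subunit, 235 bases upstream, and Cox15 has that of Cutc 23 bases upstream. The windows are given 5′ to 3′ on the minus strand, which is the strand of all 3 members, with the bases between the start sites in capitals. They come from RefSeq, with the Atp5f1 window at chr3:105959214-105959513 and the Cox15 window at chr19:43752951-43753250.
Ndufa13: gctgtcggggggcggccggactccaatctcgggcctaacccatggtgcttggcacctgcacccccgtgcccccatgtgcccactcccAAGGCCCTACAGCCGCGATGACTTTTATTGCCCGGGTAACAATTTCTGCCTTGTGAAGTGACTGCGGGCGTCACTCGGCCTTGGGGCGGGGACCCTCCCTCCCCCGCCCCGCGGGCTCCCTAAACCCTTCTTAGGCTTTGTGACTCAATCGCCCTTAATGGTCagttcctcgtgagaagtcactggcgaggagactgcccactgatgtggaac
Atp5f1: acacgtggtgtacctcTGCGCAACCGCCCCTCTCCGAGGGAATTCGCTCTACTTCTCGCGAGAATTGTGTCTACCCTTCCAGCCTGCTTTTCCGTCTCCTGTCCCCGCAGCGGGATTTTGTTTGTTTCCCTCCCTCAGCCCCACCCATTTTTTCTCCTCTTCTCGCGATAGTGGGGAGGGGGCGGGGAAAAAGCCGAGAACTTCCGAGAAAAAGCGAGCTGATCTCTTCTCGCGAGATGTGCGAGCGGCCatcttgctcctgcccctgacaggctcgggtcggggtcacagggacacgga
Cox15: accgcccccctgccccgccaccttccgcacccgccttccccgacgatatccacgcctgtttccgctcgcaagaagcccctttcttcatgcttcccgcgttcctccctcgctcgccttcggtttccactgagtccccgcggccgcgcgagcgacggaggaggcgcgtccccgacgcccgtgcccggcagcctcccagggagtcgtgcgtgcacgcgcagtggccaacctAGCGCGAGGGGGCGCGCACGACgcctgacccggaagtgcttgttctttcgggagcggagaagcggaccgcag

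Of 82 members with such a window in the reference, 18 had another coding gene's start on the opposite strand within 300 bases upstream, or 22.0%, against 6.63% of 16853 coding genes. The letters GCATGCGC, a core of the site of the respiratory factor NRF1, were in 13 of the 82 windows (15.9%, against 4.08% of all coding genes, both strands read). The letters CCGGAAG, a site of ETS factors such as GABP, were in 23 (28.0%, against 13.3%), and the cAMP response element TGACGTCA in 5 (6.10%, against 2.62%). The motifs share no stretch of their letters that would make 1 a part of another. A match is a description of the window and not a bound site. Among the printed windows, the Cox15 window alone held any of them, CCGGAAG. Windows for 17 members, Uqcrc2 and Uqcrq among them, were not used here.

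Tssk6 itself stood at 12.8, 21.8, 167.5 and 40.9 FPKM in control sperm pools 1 to 4, at 35.9 and 32.5 in cadmium sperm, and at 6.48 to 10.6 in the 4 testes libraries. It was thus lower than Ndufa13 in each library and, like it, higher in each sperm library than in any testes library. Other members with many counts also overlap a coding gene. Cox15 overlaps Entpd7 on the other strand by 600 bases, Uqcrc2 overlaps Pdzd9 by 621 and Uqcrq overlaps Gdf9 by 58, the strand of these last pairs not being in the reference used. Entpd7 was at 0 in 7 of 10 libraries and at most at 2.27 FPKM, and Pdzd9 lay at 0 to 1.34 FPKM in sperm and 2.01 to 8.23 in testes.

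Of the 10 members with the highest mean FPKM, 4 overlapped another coding gene on either strand, and of the other 89 members 15 did, or 16.9%. Among all known mRNA genes with a position, 19.9% did, while 63 of the 100 highest in testes and 53 of the 100 highest in sperm did. On the opposite strand alone the shares were 15.5% of all known mRNA genes with a strand, 48 of the 100 highest in testes and 42 of the 100 highest in sperm. Odf1 and Akap4 were low in testes, while the protamines Prm1 and Prm2 lay at 118.0 to 135.6 and 147.3 to 280.9 FPKM there. Over the 10 libraries Actb, the cytoplasmic actin, lay at 0 to 12.7 FPKM and Gapdh of glycolysis at 0 to 56.3. The strand setting of the authors' counting is not given in the sources used here. If the strand opposite to the genes was counted, every mRNA value given here would be that of the other strand. This was not tested, nor was how far reads of neighbouring genes enter the counts.

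**Figure D3:**
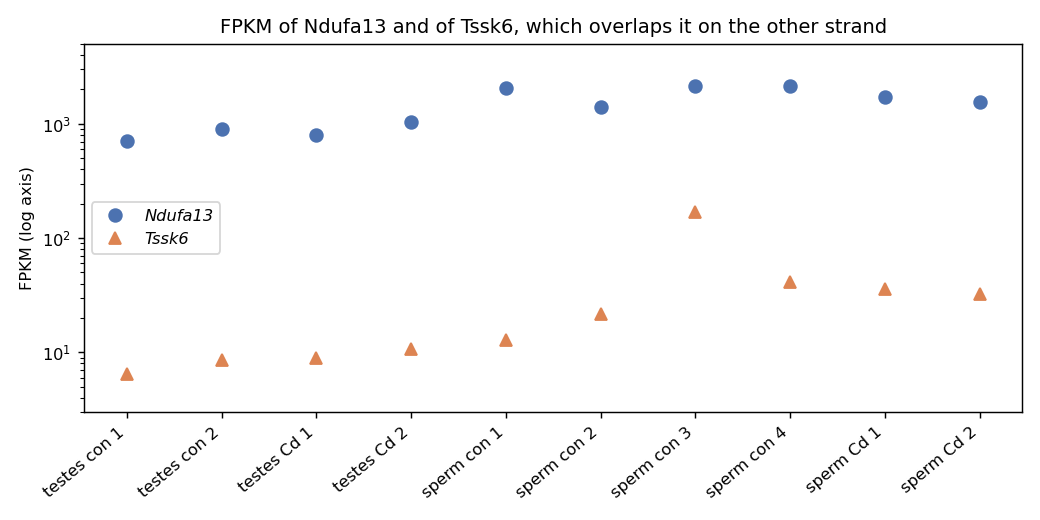
The points give the FPKM of Ndufa13 (circles) and Tssk6 (triangles) in each library on a log axis. Ndufa13 lies between 707.9 and 2130.6 FPKM and Tssk6 between 6.48 and 167.5, and both are higher in every sperm library than in any testes library.

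**Figure D4:**
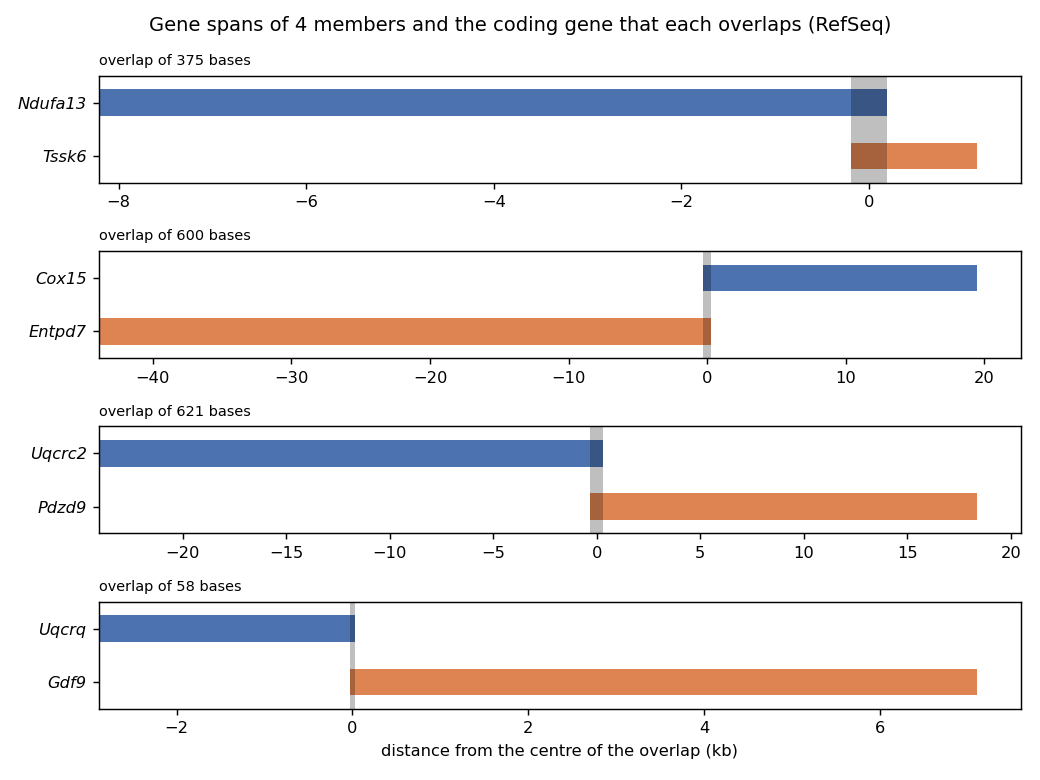
Each panel draws to scale the RefSeq span of a member (blue) and of the coding gene that it overlaps (orange), with distance from the centre of the overlap in kb and the overlap shaded. The overlaps of 375, 600, 621 and 58 bases lie at the ends of the genes.

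Complex II, the succinate dehydrogenase, was represented by its 4 subunit genes and 3 assembly factor genes. Sdha, the flavoprotein, was the highest subunit with 1.23 and 1.22 FPKM in control testes, 0.96 and 0.65 in cadmium testes, 0.33 in control sperm pool 2, 0.30 in cadmium sperm 1 and 0 in the other sperm libraries. Sdhb, the iron-sulphur protein, and Sdhd, a membrane anchor, were at 0 in all 6 sperm libraries and reached 1.02 and 0.84 FPKM in testes. Sdhc, the other anchor, was listed in control sperm pool 2 at 0.83 FPKM and reached 0.68 in testes. Sdhaf1, an assembly factor for the iron-sulphur protein, was listed in both cadmium sperm samples at 1.86 and 1.72 FPKM, with 2 counts each, and in none of the other 8 libraries.

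Complex III, the cytochrome bc1 complex, had all 9 members listed in testes and 8 of them in every testes library. Uqcrc2, a core protein of the matrix side, stood at 23.8 and 52.6 FPKM in control testes, 19.1 and 51.8 in cadmium testes, 0, 0, 0 and 7.45 in control sperm pools 1 to 4 and 2.33 and 0.43 in cadmium sperm. It rested on 736 counts in testes and 13 in sperm. Uqcrq, a small subunit that binds ubiquinone, stood at 46.3 and 54.9 FPKM in control testes, 61.6 and 79.2 in cadmium testes, 0, 28.8, 0 and 0 in control sperm and 13.2 and 10.4 in cadmium sperm. For both genes each testes library was above every sperm library. Uqcr10 overlapped between tissues, with 0 to 11.96 FPKM in sperm and 4.48 to 9.85 in testes, and Uqcrb, Uqcrh and Uqcrfs1, the Rieske iron-sulphur protein, were at 0 in all sperm libraries.

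Complex IV, the cytochrome c oxidase, had 16 subunit genes and 7 assembly factor genes. The highest member was Cox15, an assembly factor that makes heme A. It stood at 3.45, 6.51, 5.15 and 9.46 FPKM in control sperm pools 1 to 4, at 9.93 and 25.3 in cadmium sperm, at 0.88 and 1.45 in control testes and at 0.66 and 1.78 in cadmium testes, so that the tissues did not overlap. The highest subunits by the mean over the 10 libraries were Cox7a2, Cox6a2 and Cox4i1. Cox7a2 reached 7.88 FPKM in testes and was listed in 1 sperm library, cadmium sperm 2, at 1.12. Cox4i1, a regulatory subunit, lay between 0 and 3.50 FPKM in testes and was listed in 2 sperm libraries at 1.5 and 1.27.

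The testis isoforms were too sparse to rank against the somatic forms. Cyct, the testis cytochrome c, had 1 count in control testes 2 and 1 in cadmium testes 2, at 0.63 and 0.61 FPKM, and none in sperm. Cycs, its somatic counterpart, was listed in all 4 testes libraries at 0.73 to 0.96 FPKM, in control sperm pool 2 at 2.23 and in the cadmium sperm samples at 0.26 and 0.53. Cox6b2 had 4 counts and Cox7b2 6 counts in testes and none in sperm, while their somatic counterparts Cox6b1 and Cox7b were listed in none of the libraries. Cox8c and Cox8a were each listed once, both in cadmium testes 1, with 1 count each. Of the tissue forms, Cox4i2 reached 3.07 FPKM in testes and 2.51 in sperm, against 3.50 and 1.5 for Cox4i1. Cox6a2, the heart and muscle form, reached 2.85 and 2.79, against 2.17 and 1.75 for Cox6a1. Ndufa4l2 reached 1.15 in testes and 3.06 in sperm, and its counterpart Ndufa4 and the muscle form Cox7a1 were listed in none of the libraries.

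Complex V, the ATP synthase, had 15 subunit genes. Another 2 genes, Atp5s and Atp5sl, were grouped here by symbol alone, and RefSeq calls them Dmac2l and Dmac2. Atp5f1, the b subunit of the peripheral stalk, stood at 72.2, 47.6, 47.9 and 44.1 FPKM in control sperm pools 1 to 4, at 78.5 and 51.1 in cadmium sperm, at 10.5 and 11.3 in control testes and at 9.23 and 12.3 in cadmium testes. The sperm libraries lay above all testes libraries. Atp5b, the catalytic beta subunit, stood at 8.97, 10.7, 0 and 8.52 FPKM in control sperm pools 1 to 4, at 10.3 and 12.1 in cadmium sperm and at 3.35 to 4.74 in testes, so that control sperm pool 3 alone was not above the testes. Atp5g2, which encodes subunit c of the rotor, lay between 0 and 7.10 FPKM in sperm and 5.57 and 7.73 in testes. Atp5a1, the alpha subunit that alternates with beta in the head of the enzyme, reached 1.28 FPKM in testes and was listed in 1 sperm library at 0.33. The subunits of the same head thus differed in listing: Atp5c1, the central shaft, was at 0 in all sperm libraries and reached 0.67 FPKM in testes.

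The tissues were then compared within the control mice, over all 24432 genes of at least 1 FPKM in at least 2 of the 5 samples (edgeR quasi-likelihood test, Benjamini-Hochberg adjustment, called at an adjusted p under 0.05 and more than 2-fold). A member that passed this filter through 1 tissue alone was selected for its level there, so its change was tilted toward that tissue in advance. Of 34 members that passed, 1 was called higher in control sperm, when 4.15% of all genes tested were, and 7 were called lower, when 17.6% of all genes tested were. The other 65 members were too low to be tested. The median log2 change was -2.48 over the members tested and -1.24 over all genes. With genes at 0 in a group held at the bound that 3 counts over the group allow, these medians were -0.52 and -0.80. Such a group was found for 15 of the 34 members and for 4433 of the 24432 genes. A bound gives only a least change, so the order of these medians does not show which set changed more.

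Uqcrc2 was lower in control sperm by a log2 change of -4.33 ± 1.15 (SE, adjusted p = 0.00764, edgeR). The other lower members, Atp5l of the membrane sector of the ATP synthase, Atp5sl, the oxidase assembly factor Cox20, Cox7a2, the complex I assembly factor Ndufaf3 and the complex I core subunit Ndufv2, were at 0 in all 3 pools. Against 3 counts over the group, Atp5l, Cox7a2 and Ndufaf3 were each at least 2.47-fold lower, Cox20 at least 2.12-fold, Ndufv2 at least 1.88-fold and Atp5sl at least 1.29-fold. Ndufs6 was the higher member, with 7 counts in 3 pools and 0 in testes, or at least 6.61-fold higher. These 7 of the 8 called members were at 0 in the other tissue and passed the filter only through the tissue where they were high, so their calls are a description. Uqcrc2, with 7 counts in pool 4 and 0 in pools 2 and 3, also passed through testes alone, so its call too is a description. Of the members with the most counts, Atp5f1 had a log2 change of 1.86 ± 0.93 (adjusted p = 0.143), Cox15 of 2.32 ± 1.24 (adjusted p = 0.172) and Ndufa13 of 0.93 ± 0.46 (adjusted p = 0.138), none of them called by edgeR although the samples did not overlap.

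These control calls rested on every library. Without control sperm pool 2 there was 1 call, without pool 3 there were 3, without pool 4 there were 2, and without control testes 1 or 2 there were 1 and 0. DESeq2 called 1 member, Uqcrc2, and limma on log2(FPKM + 1) called 17, so the count of 8 is not firm. The shares of all genes that DESeq2 and limma called are not given here, so these counts are no result about the members. Uqcrc2 stayed called under 11 of the alternatives in control mice and lost its call under 5, and in cadmium mice it stayed called under all 14. The alternatives reuse the same libraries, and in the main fits Uqcrc2 passed the filter through testes alone. These tallies are therefore a description as well.

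In the cadmium mice the same tissue comparison used libraries that share none with the controls. Of 37 members tested among 25779 genes, 4 were called higher in sperm, when 16.2% of all genes tested were, and 5 were called lower, when 15.4% were. The median log2 change was -0.11 over the members and -0.30 over all genes. With bounds in place of genes at 0 in a group, it was 0 and -0.17. A bound that crossed 0 was set to 0, so the member median of 0 is such a set value and no estimate of equal levels. Cox15 was higher in cadmium sperm by a log2 change of 4.07 ± 0.62 (SE, adjusted p = 1.95e-09), Atp5f1 by 2.77 ± 0.57 (adjusted p = 1.74e-05) and Atp5b by 1.73 ± 0.64 (adjusted p = 0.0249), all by edgeR. Sdhaf1, with 4 counts in sperm and 0 in testes, was at least 3.07-fold higher. The counts of Cox15 and Atp5f1 were 207 and 249 in the 2 cadmium sperm samples.

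Uqcrc2 was lower in cadmium sperm by a log2 change of -4.58 ± 0.72 (adjusted p = 7.40e-09, edgeR), and Uqcrq by -2.35 ± 0.67 (adjusted p = 0.00263, edgeR). The others, at 0 in both cadmium sperm samples, were Atp5h of the peripheral stalk, at least 3.00-fold lower, Uqcrb, a small complex III subunit, at least 2.44-fold lower, and Ndufaf3, at least 2.17-fold lower. These and Sdhaf1, 4 of the 9 called members, were at 0 in the other tissue. They passed the filter only through the tissue where they were high. Uqcrc2, at 2.33 and 0.43 FPKM in cadmium sperm, passed only through testes. Cox15, at 0.66 and 1.78 FPKM in cadmium testes, passed only through sperm. The calls of all these genes are a description. Ndufa13 had a log2 change of 1.04 ± 0.68 (adjusted p = 0.243, edgeR). Without cadmium testes 1 the 9 calls fell to 1, Uqcrc2. There were 5 calls without cadmium sperm 1, 4 without cadmium sperm 2 and 3 without cadmium testes 2.

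**Figure D5:**
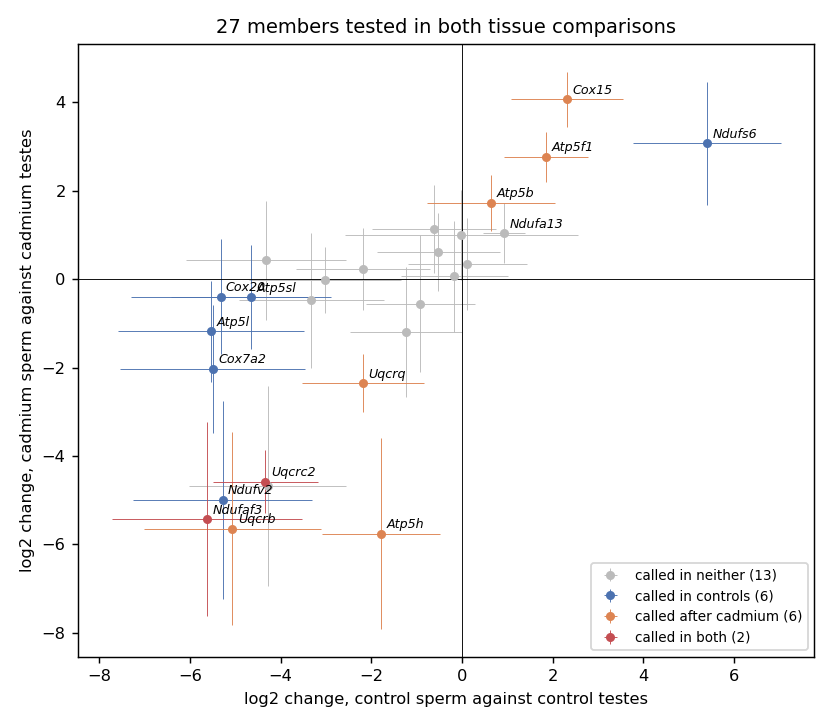
Each point is 1 of the 27 members tested in both tissue comparisons, with its log2 change in sperm against testes in control mice (x axis) and in cadmium mice (y axis), and bars of 1 SE. Of these, 2 are called in both, Uqcrc2 and Ndufaf3, and both lie in the lower left. Each passed the filter only through testes in both comparisons, so their place there is a description. The share of all genes called in both is not given here.

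Cadmium was compared with saline in the testes over 46 members and 26724 genes. None of the members was called, when 0.0225% of all genes tested were, none had an unadjusted p under 0.05, and DESeq2 called none. The median log2 change was 0.06 over the members and 0.02 over all genes. Ndufa13 changed by a log2 of 0.25 ± 0.56, Uqcrc2 by -0.03 ± 0.61, Uqcrq by 0.55 ± 0.50, Atp5f1 by 0.07 ± 0.52 and Cox15 by 0.17 ± 0.71 (adjusted p = 1.0 in each, edgeR). The widest differences, a log2 of 2.11 ± 1.59 for Cox5a and -1.51 ± 1.14 for Uqcrfs1, also did not pass. The samples numbered 2 were above those numbered 1 for Uqcrc2 in both groups, and for Ndufa5, an accessory subunit of complex I, at 16.1 against 0 FPKM in controls and 6.79 against 0 after cadmium.

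In sperm, 24 members were tested among 20638 genes. None was called with cadmium, when 0.0824% of all genes tested were, 2 had an unadjusted p under 0.05, DESeq2 called none and limma on log2(FPKM + 0.1) called 4. The 2 were Cox4i2 and Sdhaf1, each listed in both cadmium sperm samples and in none of the control pools. Both passed the filter only through cadmium sperm, so their values are a description. Among all 20638 genes, 1354 had an unadjusted p under 0.05 (edgeR). The share of all genes called by limma is not given here. The median log2 change was 0.76 over the members and 0.43 over all genes. Cadmium sperm held more counts than any control pool, 1155491 and 1254477 against 366455 to 1058017, and the part of this depth in what was listed was not tested. Cox15 changed by a log2 of 1.43 ± 0.75 (adjusted p = 0.790), Atp5f1 by 0.52 ± 0.65 and Ndufa13 by -0.09 ± 0.44 (adjusted p = 1.0 for both, edgeR).

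The cadmium effect in sperm was set against that in the testes in 1 model of 9 libraries. None of 55 members tested was called, when 0.0396% of all 32813 genes were, none had an unadjusted p under 0.05, and DESeq2 called none. The difference was a log2 of 1.22 ± 1.26 for Cox15, 0.39 ± 1.11 for Atp5f1, -0.40 ± 0.64 for Ndufa13 and -0.69 ± 1.45 for Uqcrc2 (adjusted p = 1.0 in each, edgeR). The standard error of most members was large next to any difference of 2-fold, so that differences of this size could not be told from 0 with these samples and counts.

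Other mitochondrial lists were read in the same fits. Of 30 further assembly factors of the chain, 27 were listed in some library. Shares of all genes called were as given above, 4.15% higher and 17.6% lower in controls and 16.2% and 15.4% in cadmium mice. In control sperm 2 of 9 tested were called lower, Acad9 and Ecsit, both of complex I assembly, and in cadmium sperm 1 of 10 was higher, Atpaf2 of the ATP synthase, and 1 lower, Acad9. Of 5 genes tested of the citric acid cycle and pyruvate dehydrogenase, 3 were called lower in control sperm, Dld, Sucla2 and Suclg1, and none of 5 in cadmium sperm. Both Vdac2 and Vdac3, pores of the outer membrane, were called lower in control sperm, among 5 carriers and pores tested. All 7 of these genes were at 0 in every control pool and passed the filter only through testes, so their calls are a description. In cadmium mice Slc25a20, the carnitine carrier, was higher in sperm, among 3. Polg, the mitochondrial DNA polymerase, was lower in cadmium sperm, the 1 call among 2 tested of the mitochondrial DNA list, and none of 4 was called in controls. In cadmium sperm Polg stood at 0.57 and 1.22 FPKM and Acad9 at 0 and 0.86. Both thus passed the filter only through testes, and their calls in cadmium mice are a description. No gene of coenzyme Q synthesis (2 and 1 tested) or of the sperm mitochondrial sheath (4 and 4 tested) was called. Cadmium against control called none of these lists' genes in either tissue.

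The adenine nucleotide carriers were near 0. Slc25a31, the testis form, was listed in 2 testes libraries at 0.17 and 0.34 FPKM and in no sperm library, Slc25a4 reached 0.75 FPKM and Slc25a5 0.56. Pdha2, the testis form of a pyruvate dehydrogenase subunit, reached 1.26 FPKM in testes and was at 0 in sperm, while its somatic form Pdha1 reached 1.63 in testes and 0.33 in sperm. Smcp, a protein of the mitochondrial capsule, lay between 0 and 4.13 FPKM in testes and was listed in 2 sperm libraries at 1.11 and 3.75.

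Among the cell type markers in the same fits, Tssk6 was higher in sperm in both tissue comparisons. Prm1 and Tnp1 were lower in both, and so was Gfra1 of spermatogonia. Akap4 and Tnp2 were lower and Amhr2 of Sertoli cells higher in cadmium sperm. In cadmium mice Akap4 and Gfra1 passed the filter only through testes, and Amhr2 only through sperm. These calls are a description. Odf1, Sycp1 of spermatocytes, Lyz2 of leukocytes and, in both comparisons, Insl3 of Leydig cells were called lower, but each was at 0 in all sperm samples of the comparison and passed the filter only through testes. None of the markers was called between cadmium and control.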

How the data were processed

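RNA-seq tables of 10 mouse libraries were analysed. Per the labels and the study's methods, RNA was depleted of rRNA with RNase H and sequenced strand-specifically. The methods name SOAPaligner/SOAP2 and the submitters' processing notes name HISAT and mm10. The expected counts deposited by the authors are estimates per transcript, not normalized. The FPKM deposited by the authors divide these by length of the transcript and by depth. A transcript that a table did not list was taken as 0. Transcripts were summed by gene, and 29.3 to 40.3% of the expected counts of a library were not whole numbers within 0.005 and were rounded.

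The main test was the quasi-likelihood test of edgeR 4.0.16 with TMM scaling, on genes that reached 1 FPKM in 2 or more samples, adjusted by Benjamini-Hochberg over all genes. Calls needed an adjusted p under 0.05 and over 2-fold. The SE is the log2 change divided by the square root of F. There were 5 comparisons. Control sperm pool 1 was left out of the main tests, as in the study. A group at 0 was held at 3 counts over the group, and a bound that crossed 0 was set to 0. Genes with no more than 3 counts in the other group were left out of the medians with bounds. Alternatives used DESeq2 1.42.0, limma 3.58.1 on log2(FPKM + 1) or log2(FPKM + 0.1), other scalings, filters and samples. The test was checked on simulated data, with changes planted only in genes of more counts than most members have. The check therefore does not speak to members with few counts. Positions and sequences come from RefSeq's GRCm38.p6.

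Named genes were the isoform pairs, the 3 highest subunits of a complex, the called members and fixed genes of other lists and markers. The members and lists were chosen with earlier results of these data known. Ndufa5, Cox5a, Uqcrfs1, the low core subunits and the neighbouring genes were named after their values were seen. Samples of a group are separate pools or tissue samples, and for the cadmium groups nothing gives their make-up, so p-values measure the spread between samples, which may be technical. Totals of 366455 to 2866856 counts per library set the precision.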

Additional observations from a re-analysis of the deposited data

Results flagged for a closer look

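Among the 4 control sperm pools, 8 measures were screened for a pool far from the others, and 4 stood out. Chance gives about 1 in 20 such results where values spread evenly, but a gene listed in a single pool stands out by construction, as Uqcrc2 and Uqcrq do. Ndufa13 was lowest in pool 2 at 1395.1 FPKM, where the other pools had 2071.8 to 2130.6. Atp5f1 was highest in pool 1 at 72.2 FPKM, against 44.1 to 47.9. Uqcrc2 was listed in pool 4 alone, at 7.45 FPKM on 7 counts, and Uqcrq in pool 2 alone, at 28.8 FPKM on 14 counts. Pool 2 was also the deepest of the control pools, with 1058017 counts.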

How the results depend on the processing

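Leaving out 1 library at a time gave 0 to 3 calls in place of 8 for control sperm against control testes, and 1 to 5 in place of 9 in cadmium mice. Where 1 library of a group was left, it was assumed to vary like the others. In control mice, upper quartile scaling gave 0 calls, DESeq2, no low-count filter and edgeR's filterByExpr gave 1 each, and limma gave 17 with a pseudocount of 1 and 16 with 0.1. In cadmium mice DESeq2 gave 4 calls and filterByExpr 5. For cadmium against control in sperm, limma with a pseudocount of 0.1 gave 4 calls in place of 0. The cause was not tested. Except for upper quartile scaling, the share of all genes called under each setting is not given here. These counts thus describe the processing and not the members.

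The log2 change of Atp5b in control mice, which was not called, turned from 0.65 to -0.053 and -0.96 under limma with pseudocounts of 1 and 0.1, and lay between -0.10 and 1.37 when 1 library was left out. Over all genes, upper quartile scaling moved the median log2 change of that comparison from -1.24 to -0.38 (TMM on known mRNA genes, -1.44), and its calls from 1013 higher and 4306 lower to 284 and 80. It could not be fitted for the model of 9 libraries.

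With the replicate number as a block there was 1 call in control mice with control sperm pool 1 added, 6 in cadmium mice, and 0 in each comparison of cadmium with control. The numbers are not stated to pair samples. For the testes, deviations from the group mean were correlated between cadmium and control samples over 26724 genes. The correlation was 0.50 for the same number and -0.50 for unlike numbers. With 2 samples per group the deviations mirror each other, so that these are 1 value.

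The mean number of members listed per library was 14.3 in control sperm pools 2 to 4 and 72 in control testes. It fell to 11.7 in control sperm, 40 in control testes, 25.5 in cadmium sperm and 38.5 in cadmium testes at a minimum of 1 FPKM, and to 7.67, 36.0, 12.5 and 38.5 at 3 counts. The share of Cox8c beside Cox8a in testes was 50.0% by counts. Most sperm values rest on few counts, those of Ndufa13 and Atp5f1 on more.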
